A study of Mus musculus with 6 samples.

Results

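Fibroblast growth factors (FGFs), their receptors and a few closely tied genes were followed in lens capsules taken at cataract surgery and 5 days later. The group was set by name, with no measured value in the rule: the ligands Fgf1, Fgf2, Fgf7 and Fgf9, the receptors Fgfr1, Fgfr2 and Fgfr3, the receptor-like Fgfrl1, the docking protein Frs2 and the carrier Fgfbp1. All 10 were found by Ensembl identifier among the 56940 genes listed, and 7 of them had enough reads to be tested.

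RNA came from the lens capsule and the lens epithelial cells attached to it, in wildtype C57BL/6 mice. In the operation the fiber cell mass is removed through an anterior opening, and the capsule with its epithelium stays in the eye. Each time, the day of the operation (0 h) and 5 days later, has 3 libraries of 5 pooled capsules. The mice of the 0 h group were not free of surgery: their other eye had already spent 5 days after the operation when the 0 h capsule was taken. Whether pools of the different times hold capsules of the same mice is not given in the sources used here, and neither are the age and sex of the animals.

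FGFs are secreted proteins that bind a receptor tyrosine kinase together with heparan sulfate, a sulfated sugar chain of the cell surface and of basement membranes such as the lens capsule. The receptor then passes the signal through the docking protein FRS2 to the RAS-ERK cascade, which induces its own inhibitors. In the lens, FGF signalling is known for driving epithelial cells at the equator to become fiber cells, and the receptors encoded by Fgfr1, Fgfr2 and Fgfr3 act together in that step.

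The libraries held 6207387 to 9774343 gene counts. Of 12 listed lens epithelium markers, all 12 were tested, with 8 called lower and 2 higher (22.5% and 25.1% of all tested genes). Their median log2 fold change was -1.39. They summed to 4928 to 5264 CPM (gene counts as parts per 1e6 of the TMM-scaled library total) at 0 h. At 5 days the sum was 2021 to 2773 CPM, so the labelled cell type was present at both times. Lens fiber markers, 11 of 11 called lower, summed to 73357 to 83575 CPM at 0 h and 4417 to 15073 CPM at 5 days. Markers of other cell types were detected too, and the sums given here differed between the times. Macrophage and monocyte markers (14 of 14 called higher) summed to 21.5 to 45.8 CPM at 0 h and 588.0 to 836.6 CPM at 5 days, and retinal photoreceptor and neuron markers (11 of 12 called lower) to 627.2 to 945.5 and 46.7 to 147.7 CPM. Of 9 tested fibroblast and keratocyte markers, 6 were called higher and 2 lower. The list summed to 1204 to 1451 CPM at 0 h and 2206 to 3397 CPM at 5 days. The 0 h sum was mostly the 2 lower genes, Aldh3a1 (mean 915 CPM) and Pdgfra (335 CPM). At 5 days Col1a1 (mean 943 CPM) and Col1a2 (688 CPM) were the largest. Within the list, Kera and Dpt had 0 counts in every library. Lum went from 6 counts in all at 0 h to 173 at 5 days, and Dcn from 53 to 553. Which cells held the listed transcripts was not tested. Vascular and mural markers (6 called higher and 1 lower of 9 tested) summed to 16.3 to 21.9 and 80.2 to 117.6 CPM. Some listed markers passed the low-count filter through the libraries of 1 time alone. Itgam of the macrophage list had 7 counts in all at 0 h and 399 at 5 days. Opn1sw of the retinal list had 103 and 7. The numbers of markers called are therefore descriptions only. The part of these cell types in the results below was not tested.

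The FGF genes went both ways. By edgeR's quasi-likelihood test, 2 of the 7 tested members were higher at 5 days (Fgf2 and Fgfr1) and 3 were lower (Fgf1, Fgfr2 and Fgfr3), at an adjusted p under 0.05. Fgfrl1 and Frs2 were not called. Of all 14676 genes tested, 47.6% were called, 25.1% upward and 22.5% downward, and the share of members called is to be read against that background. With total gene counts in place of the TMM scaling, 62.9% of all calls were upward against 52.7% with TMM, and the median gene shifted by 0.13 on the log2 scale. The 5 calls among the members kept their direction under each of the 14 other settings tried. The median log2 fold change of the 7 members was -0.19, beside -0.01 over all tested genes. In bulk samples such as these, fewer cells of a type and less RNA per cell cannot be told apart.

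**Figure D1:**
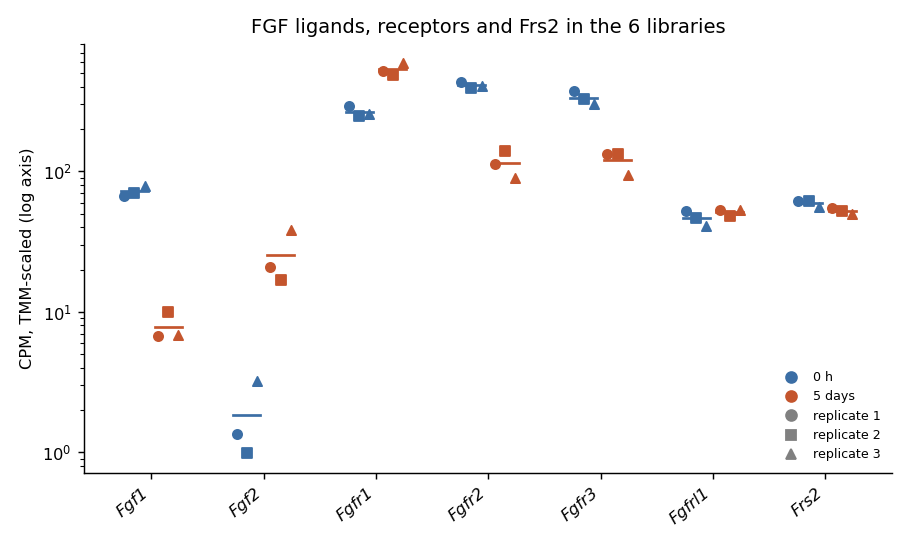
CPM on a log axis for the 7 tested members in the 6 libraries, blue for 0 h and orange for 5 days, with the replicate as the marker shape and the group mean as a short line. Fgf1 and Fgf2 cross over, Fgfr1 rises where Fgfr2 and Fgfr3 fall, and Fgfrl1 and Frs2 stay between 40.5 and 61.8 CPM.

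Of the ligands, Fgf1 (ENSMUSG00000036585) encodes acidic FGF, which binds all FGF receptors and lacks a classical secretion signal. It stood at 67.2, 70.5 and 78.3 CPM in the 0 h libraries and at 6.68, 9.92 and 6.90 CPM at 5 days. Every 0 h library was far above every 5 day library, and the groups did not overlap. The log2 fold change of 5 days over 0 h was -3.19 with a standard error (SE) of 0.16 and an adjusted p of 2.23e-08 by edgeR, a 9.15-fold fall. This was the largest fall of the tested members.

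Fgf2 (ENSMUSG00000037225) encodes basic FGF, which is stored on heparan sulfate in the lens capsule and, like FGF1, leaves cells by a non-classical route. It moved the opposite way, from 1.35, 0.987 and 3.22 CPM at 0 h to 20.8, 17.0 and 38.1 CPM at 5 days. The groups did not overlap, and replicate 3 was the highest library at each time. The log2 fold change was 3.77 (SE 0.41, adjusted p = 1.27e-05), a 13.7-fold rise. The size rests in part on replicate 3 of each time, with 27 of the 46 reads at 0 h and 348 of the 614 at 5 days. Without replicate 3 at 0 h the Fgf2 log2 fold change was 4.44, and without replicate 3 at 5 days it was 3.33. Without any other single library it lay between 3.44 and 4.004. The adjusted p by edgeR was at most 0.000248 in all of these fits. Replicate 3 at 0 h also had the highest summed macrophage markers (45.8 CPM) and retinal markers (945.5 CPM) of its group.

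The 3' part of Fgf2 overlaps Nudt6, a gene on the opposite strand, over 640 exon bases in GENCODE M21. Nudt6 had 39, 47 and 24 counts at 0 h and 15, 38 and 33 at 5 days, so its reads did not follow those of Fgf2. The strand setting of the counting is not given in the sources used here, and without it reads of such partners cannot be told apart.

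The other ligands among the members were scarce. Fgf9, a ligand of the neural retina and of many epithelia, had 7, 10 and 6 counts at 0 h and 0, 3 and 2 at 5 days. These groups did not overlap, but the gene fell below the low-count filter, and with no filter it was not called (log2 fold change -2.06, SE 1.07, adjusted p = 0.156). Fgf7, the keratinocyte growth factor made by fibroblasts, had 1 count at each time, in replicate 3 of each. At this depth 3 counts, the upper limit that a count of 0 allows, correspond to 0.328 to 0.477 CPM per library, for counting error only. Fgf7 expression was therefore at or under the detectable level in all libraries.

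A list of the 18 remaining FGF genes held few detectable ones. Of these, 4 were tested, with 3 lower and 1 higher (22.5% and 25.1% of all tested genes), and 6 had no count in any library, among them Fgf3, Fgf8 and Fgf16. Fgf11, Fgf12 and Fgf13 encode intracellular FGF homologous factors that bind sodium channels rather than FGF receptors. Fgf11 fell from 14.1 ± 3.21 to 6.58 ± 1.82 CPM (SD, n = 3), a log2 fold change of -1.08 (SE 0.26). Fgf12 was lower by -1.81 (SE 0.62, adjusted p = 0.0308), but that call was lost without replicate 3 at 0 h (-1.29) or replicate 1 at 5 days (-1.35), and with DESeq2 (-1.84), while without replicate 2 at 5 days the Fgf12 log2 fold change was -3.28. These genes are also expressed in neurons, and the retinal markers fell in the same libraries, with a summed level of 627.2 to 945.5 CPM at 0 h and 46.7 to 147.7 CPM at 5 days. The part of retinal RNA in these falls was not tested.

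The member of that list that rose was Fgf21, named here after its values were seen. It encodes an endocrine FGF that needs the co-receptor β-Klotho. It had 2, 0 and 0 counts at 0 h and 13, 15 and 36 at 5 days, so it passed the low-count filter through its 5 day libraries alone. By counts pooled over the libraries of each time it was 34.1-fold higher, with a 95% exact counting interval of 9.07 to 288. That interval covers counting error only and leaves out the spread between pools. The β-Klotho gene Klb had 1 count over all 6 libraries, and the α-Klotho gene Kl had 5 counts at 0 h and 0 at 5 days.

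Among the receptors, Fgfr1 (ENSMUSG00000031565) stood at 292, 249.6 and 256.6 CPM at 0 h and at 521, 486 and 585 CPM at 5 days. The groups did not overlap, and replicate 3 was the highest 5 day library. The log2 fold change was 1.00 (SE 0.11, adjusted p = 1.4e-05).

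Fgfr2 (ENSMUSG00000030849), whose splice forms serve epithelial and mesenchymal cells, moved the other way. It stood at 433, 393 and 408 CPM at 0 h and at 112, 140.02 and 89.8 CPM at 5 days. The log2 fold change was -1.85 (SE 0.14, adjusted p = 7.44e-07), a 3.61-fold fall. Fgfr3 (ENSMUSG00000054252), also a kinase receptor, was at 370.1, 327 and 302 CPM at 0 h and at 134, 133 and 93.9 CPM at 5 days. Its log2 fold change was -1.47 (SE 0.14, adjusted p = 4.24e-06). For both genes the groups did not overlap, and replicate 3 was the lowest 5 day library, the same library that was highest for Fgfr1 and Fgf2. That library also had the lowest lens epithelium marker sum (2021 CPM) and the highest fibroblast and keratocyte marker sum (3397 CPM) of its group. Without it the log2 fold changes kept their direction and their call, and over all single libraries left out they ranged from 0.91 to 1.06 for Fgfr1, from -2.03 to -1.72 for Fgfr2 and from -1.56 to -1.33 for Fgfr3.

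Levels of different genes were compared per kilobase of the principal transcript in GENCODE M21. At 0 h the order was Fgfr2 at 124 ± 6.10 CPM per kilobase (SD, n = 3), Fgfr3 at 78.4 ± 8.16, Fgfr1 at 52.9 ± 4.48, Fgfrl1 at 19.9 ± 2.46, Fgf1 at 18.1 ± 1.43 and Frs2 at 9.28 ± 0.527. Fgfrl1 and Fgf1 overlapped with this length but not with merged exons (16.6 ± 2.06 and 13.2 ± 1.04 CPM per kilobase), and Fgf9, Fgfbp1 and Fgf2 formed a low group between 0.310 and 0.577 CPM per kilobase. At 5 days Fgfr1 was first at 106 ± 10.01 CPM per kilobase. Fgfr2 (34.3 ± 7.58) and Fgfr3 (28.4 ± 5.39) overlapped, and Fgfr3 overlapped Fgfrl1 (22.1 ± 1.24). With all annotated exons merged as the length, Fgfrl1 at 18.5 ± 1.04 CPM per kilobase overlapped Fgfr3 (16.8 ± 3.20) at 5 days and stood above Fgfr2 (11.0 ± 2.44) in every library. With the principal transcript length, Frs2 (8.13 ± 0.409), Fgf2 (4.24 ± 1.88) and Fgf1 (1.97 ± 0.455) followed at 5 days. In each of the 3 libraries at 5 days Fgf2 stood above Fgf1.

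Added up per kilobase, the kinase receptors Fgfr1, Fgfr2 and Fgfr3 came to 255 ± 17.7 CPM per kilobase at 0 h and to 168 ± 2.40 at 5 days (SD, n = 3). Fgfr1 made up 20.7 ± 0.413% of that sum at 0 h and 62.8 ± 6.88% at 5 days. The share of Fgfr2 went from 48.6 ± 1.42% to 20.3 ± 4.22% and that of Fgfr3 from 30.7 ± 1.46% to 16.8 ± 3.00%. Which of Fgfr2 and Fgfr3 was first at 0 h depends on the length used. With all annotated exons merged, Fgfr3 held 41.0 ± 1.61% and Fgfr2 35.2 ± 1.34% at 0 h, since the merged length of Fgfr2 was 10328 bases against 3323 for its principal transcript. Fgfr1 was first at 5 days with either length (65.9 ± 6.50% with merged exons). For the ligands, Fgf2 made up 1.64 ± 0.913% of the Fgf1 and Fgf2 sum at 0 h and 66.5 ± 12.7% at 5 days, while that sum went from 18.4 ± 1.62 to 6.20 ± 1.65 CPM per kilobase. These sums and shares are descriptions of the tested genes and carry no test of their own.

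**Figure D2:**
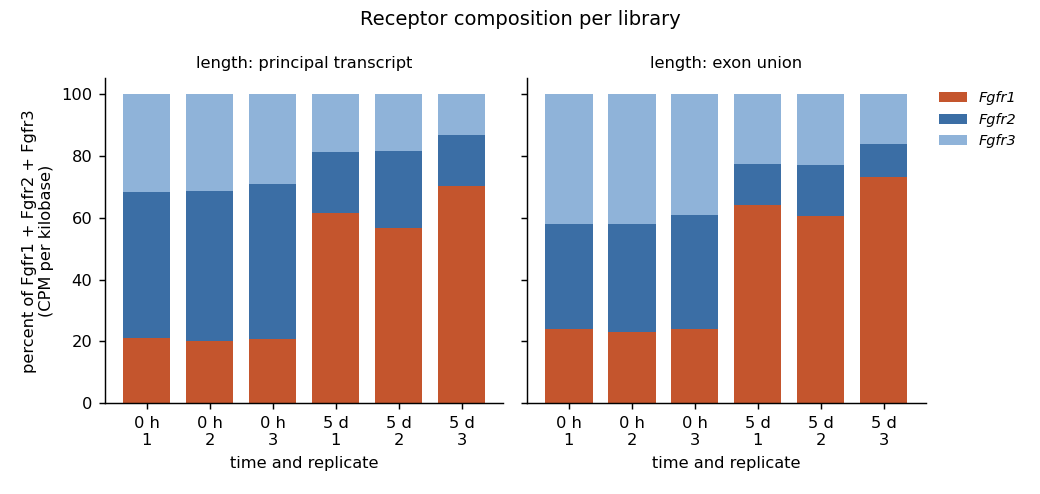
Percent of the summed Fgfr1, Fgfr2 and Fgfr3 level (CPM per kilobase) in each library, with the length of the principal transcript on the left and of all merged exons on the right. Fgfr1 (orange) is 20.3 to 21.1% of the sum in the 0 h libraries and 56.8 to 70.3% in the 5 day libraries with the principal transcript length.

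Fgfr4, the remaining kinase receptor, had 7, 7 and 6 counts at 0 h and 2, 3 and 1 at 5 days and was not tested. Fgfrl1 (ENSMUSG00000008090), a receptor-like protein that binds FGFs but has no kinase domain, stood at 52.0, 46.4 and 40.5 CPM at 0 h and at 53.2, 48.2 and 53.3 CPM at 5 days. Its groups overlapped, and the log2 fold change was 0.16 (SE 0.12, adjusted p = 0.306). Frs2 (ENSMUSG00000020170), the docking protein that links the receptors to GRB2 and SHP2, was at 61.3, 61.8 and 55.7 CPM at 0 h and at 54.6, 52.6 and 49.4 CPM at 5 days. Its groups did not overlap, which held for 58.1% of all tested genes, but the gene was not called (log2 fold change -0.19, SE 0.10, adjusted p = 0.143).

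Fgfbp1 (ENSMUSG00000048373), a secreted protein of epithelia that frees FGF2 from heparan sulfate, had 15, 6 and 5 counts at 0 h and 2, 0 and 11 at 5 days. The groups overlapped, and with no low-count filter the gene was not called (log2 fold change -0.998, SE 0.852, adjusted p = 0.443). The 5 day library with 11 Fgfbp1 counts, replicate 3, was also the one with keratins of surface epithelium, with 182 Krt5 and 418 Krt14 counts against at most 2 of each in any other library. The part of such cells in the Fgfbp1 counts was not tested.

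The gene-centred profile over the 6 libraries was closest to that of Fgf2 for Cdh6, Vill and Cd248, among 9592 named genes whose mean log2 CPM reached 3. The root-mean-square difference in log2 CPM was 0.10, 0.167 and 0.21. The nearest profiles to Fgfr1 were those of Pkd1 (0.041), Cd151 (0.042) and Jak1 (0.048). Among the nearest to Fgfr2 was Map3k21 (0.067). Cdh6, a cadherin, stood at 2.83, 1.97 and 5.37 CPM at 0 h and at 36.6, 32.0 and 74.5 CPM at 5 days, high in replicate 3 at each time as Fgf2 was.

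Other receptors and co-receptors were called throughout the 5 that were tested of 8 listed, 4 higher and 1 lower, beside 47.6% of all genes. The FLRT proteins are membrane proteins that bind FGF receptors, and their genes went apart. Flrt3 rose from 12.9 ± 0.668 to 62.2 ± 1.72 CPM (SD, n = 3), a log2 fold change of 2.27 (SE 0.12, adjusted p = 2.89e-08 by edgeR). Flrt1 fell from 47.5 ± 1.80 to 11.1 ± 3.35 CPM, a log2 fold change of -2.09 (SE 0.19), and Flrt2 rose by 0.42 (SE 0.09). Il17rd, which encodes the FGF signalling inhibitor SEF, rose by 1.08 (SE 0.15). Ncam1, an adhesion protein that can bind FGFR1, rose by 0.31 (SE 0.12, adjusted p = 0.0489), a call that was lost under 7 of the 14 other settings: the stricter filter, the replicate block (0.30) and each single library left out other than replicate 2 at 5 days (0.18 to 0.34).

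**Figure D3:**
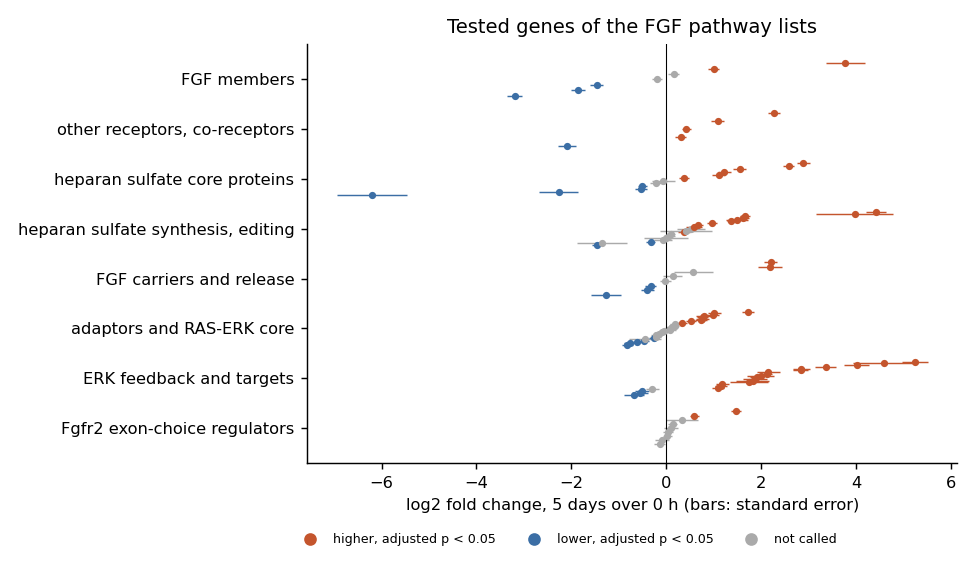
Log2 fold change of 5 days over 0 h with its standard error for each tested gene of 8 FGF pathway lists, orange where called higher, blue where called lower and grey where not called. Most ERK feedback and target genes lie to the right of 0, while the members and the adaptors and RAS-ERK core lie on both sides. The fitted value of Gpc5, the point farthest to the left, rests on 1 count at 5 days.

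Heparan sulfate is the co-receptor of the pathway, and the RNA of its core proteins and enzymes was followed. The sugar chain itself was not measured. Of 12 core protein genes tested of 13 listed, 6 were higher and 4 lower, beside 25.1% and 22.5% of all tested genes. The basement membrane proteoglycan agrin (Agrn) rose from 69.1 ± 6.01 to 414 ± 47.4 CPM (SD, n = 3), and its log2 fold change was 2.58 (SE 0.12). Glypican 1 (Gpc1), a membrane-anchored proteoglycan, rose from 55.6 ± 9.71 to 412 ± 49.7 CPM, a log2 fold change of 2.89 (SE 0.15). Perlecan (Hspg2), the most abundant core protein gene by CPM, fell from 3563 ± 230 to 2455 ± 213 CPM, a log2 fold change of -0.54 (SE 0.13). Syndecan genes Sdc1, Sdc3 and Sdc4 rose by 1.22, 1.10 and 0.38, and Sdc2 fell by 0.50 on the log2 scale. Gpc5 had 30, 46 and 31 counts at 0 h and 0, 0 and 1 at 5 days, so it passed the low-count filter through its 0 h libraries alone. By pooled counts it was 100.4-fold lower, with a 95% exact counting interval of 17.6 to 4001, for counting error only.

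Of the enzymes that build and edit heparan sulfate, 19 of 21 listed were tested, and 10 rose and 2 fell, beside 25.1% and 22.5% of all tested genes. The median of their log2 fold changes was 0.52, beside -0.01 over all genes. Some members passed the filter through their 5 day libraries alone, such as Hpse (5 counts in all at 0 h and 81 at 5 days), so the median is a description only. The sulfatases Sulf1 and Sulf2 remove sulfate groups from heparan sulfate outside the cell. Sulf1 rose from 245 ± 16.9 to 773 ± 26.4 CPM (SD, n = 3) and Sulf2 from 4.03 ± 1.36 to 88.1 ± 15.4 CPM, log2 fold changes of 1.66 (SE 0.10) and 4.43 (SE 0.21). In the same libraries the sulfotransferase genes Hs6st1 and Hs2st1, which add sulfate groups inside the Golgi, rose by 1.37 (SE 0.09) and 0.96 (SE 0.10), and the chain polymerase gene Ext1 rose by 1.62 (SE 0.14). Ndst1, the most abundant N-deacetylase and sulfotransferase gene, was not called, at 201 ± 0.961 CPM at 0 h and 215 ± 10.2 CPM at 5 days (log2 fold change 0.09, SE 0.09). Xylt1, which starts the sugar chain on the core protein, fell by 1.46 (SE 0.10), and Glce, the chain epimerase, by 0.33 (SE 0.10), with the Glce call lost with total gene counts (-0.20) and without replicate 3 at 0 h (-0.27).

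**Figure D4:**
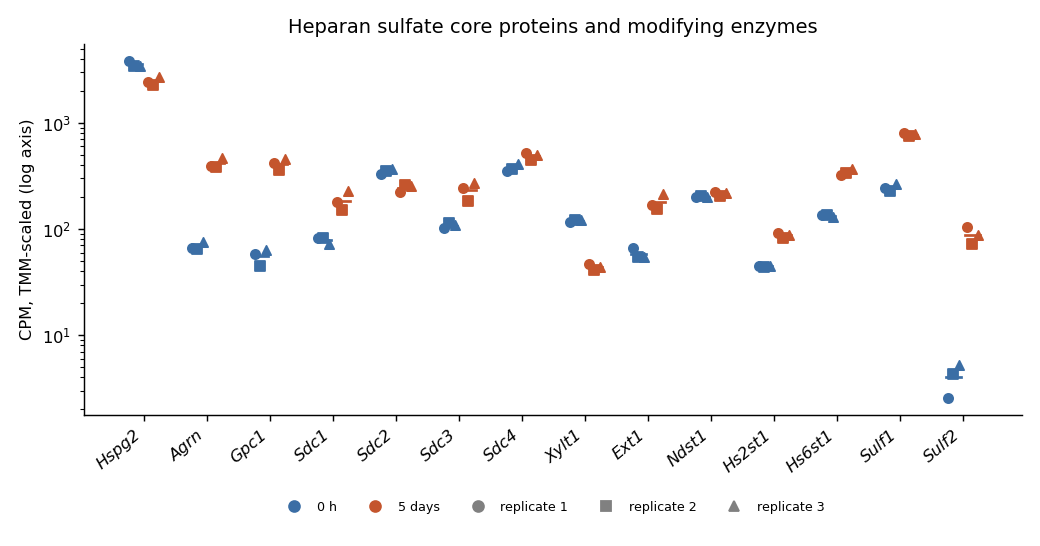
CPM on a log axis for 14 heparan sulfate genes in the 6 libraries, core proteins on the left and enzymes on the right, with blue for 0 h, orange for 5 days, the replicate as the marker shape and the group mean as a line. The 14 genes shown were picked from longer lists, and none of them overlaps between the times. Over the full lists, 10 of 12 tested core protein genes and 14 of 19 tested enzyme genes did not overlap. This held for 58.1% of all tested genes. Ndst1, which was not called, lies at 200.5 to 223 CPM over the 6 libraries.

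Of 8 tested genes for the carriage and release of FGFs, 2 were higher and 3 lower, the first near the 25.1% of all genes and the second above their 22.5%, in a short list. S100a13, whose protein takes part in the non-classical release of FGF1, rose from 2.97 ± 0.659 to 13.6 ± 1.61 CPM (SD, n = 3), and its log2 fold change was 2.18 (SE 0.26). Anxa2, a membrane-binding annexin, rose by 2.20 (SE 0.13). Syt1, a synaptic vesicle protein that also takes part in FGF1 release, fell by 1.27 (SE 0.31), and its log2 fold change was -1.87 without replicate 3 at 5 days. Vps4a, which encodes an ATPase of membrane sorting, fell by 0.40 (SE 0.14, adjusted p = 0.036 by edgeR), and its call was lost under 6 of the 14 other settings.

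Past the receptor, the adaptor and RAS-ERK core genes went both ways, with 9 of 25 higher, 5 lower and 11 not called, a median of 0.09. Over all genes 25.1% were higher, 22.5% lower and 47.6% called, so the downward share of this list was near the background. The largest rise was in Rps6ka3, the ERK-activated kinase RSK2, from 20.7 ± 2.15 to 68.6 ± 8.19 CPM (SD, n = 3), and its log2 fold change was 1.73 (SE 0.13). The small GTPase Rras rose by 1.01 (SE 0.14), while Hras fell by 0.82 (SE 0.11) and Braf by 0.76 (SE 0.13). Among the genes nearest the receptor, Grb2 and Ptpn11 (which encodes SHP2) were not called, at -0.09 and -0.16, Gab1 fell by 0.47 and Shc1 rose by 0.73. Map2k2 was lower by -0.27 (SE 0.10, adjusted p = 0.0466), and its call was lost under 10 of the 14 other settings.

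The transcriptional targets and feedback inhibitors of ERK were mostly higher. Of 20 tested genes, 16 rose and 3 fell, beside 25.1% and 22.5% of all genes. The median was 1.89 on the log2 scale, beside -0.01. Some of these genes passed the low-count filter through their 5 day libraries alone, such as Fosl1 (8 counts in all at 0 h and 199 at 5 days). The numbers called and the median are therefore descriptions only. These genes answer to other ERK-activating receptors too. The SPRED inhibitors of RAS activation rose together, Spred1 from 49.2 ± 3.42 to 215 ± 9.39 CPM (SD, n = 3), Spred2 from 25.0 ± 3.40 to 55.7 ± 3.00 CPM and Spred3 from 6.98 ± 1.91 to 49.9 ± 4.09 CPM. The ERK phosphatase gene Dusp5 had the largest rise (log2 fold change 5.24, SE 0.27), with 15, 12 and 8 counts at 0 h and 296, 352 and 637 at 5 days. The ETS factors split. Etv4 rose from 2.50 ± 0.926 to 40.4 ± 7.79 CPM (n = 3), and Etv5, a widely used readout of FGF signalling, was not called at 82.6 ± 15.3 and 67.7 ± 6.60 CPM. Etv5 was called lower (-0.41, adjusted p = 0.0323 by edgeR) when replicate 1 at 0 h was left out. Spry2, Etv1 and Ccnd1, the 3 lower members, lost their call without replicate 2 at 0 h, with log2 fold changes of -0.49, -0.54 and -0.41.

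Gene counts do not separate the splice forms of Fgfr2 that differ in ligand choice, so the regulators of that exon choice were read in their place. Of 9 tested of 11 listed, 2 rose and 0 fell, the first near the 25.1% of all genes called higher. Rbfox2, a splicing factor known to favour the epithelial exon over the mesenchymal one, rose from 42.4 ± 4.69 to 117 ± 9.20 CPM (SD, n = 3), a log2 fold change of 1.47 (SE 0.11, adjusted p = 6.25e-07 by edgeR). Ptbp1, a splicing repressor of the epithelial exon, rose by 0.59 (SE 0.09). Esrp1 and Esrp2, the epithelial splicing factors that favour the epithelial exon, were barely detected, with 0 Esrp1 counts in all libraries other than 7 in replicate 3 at 5 days, and 3, 2, 6, 0, 0 and 7 Esrp2 counts over the 0 h and then the 5 day libraries.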

How the data were processed

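The authors deposited raw counts per Ensembl gene for each of the 6 libraries. The submitters' processing notes list HISAT2, HTSeq, edgeR and the build GRCm39. Tool versions, annotation release and strand setting: not given in the sources used here. Libraries were made from total RNA with a stranded low-input kit, per the labels' protocols. The 5 HTSeq summary entries (32.26 to 42.55% of reads) were left out. Symbols and lengths came from GENCODE M21 (GRCm38), matched by identifier for 91.23% of genes, whose exon coordinates gave lengths and overlaps between genes. Genes kept by the default filter of edgeR 4.0.16 (R 4.3.3) were scaled by TMM and tested with its quasi-likelihood test, with Benjamini-Hochberg adjustment over all 14676 genes and a threshold of 0.05. The test was checked on simulated data. Alternatives used DESeq2 1.42.0, limma 3.58.1, other scalings and filters, a replicate block and each library left out. P-values set the difference between the times against the spread between pools, which edgeR estimates with information shared across genes. With 3 libraries per time an exact permutation test of a single value cannot go below 0.1, so none was run. Members and lists were chosen with earlier results of these data known. From each list the text names the called gene of highest expression and the largest 2 rises and falls, among genes whose mean log2 CPM reached 3. Any other list gene named was picked with its values in view. A few genes that the rules pick are not reported here.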

Additional observations from a re-analysis of the deposited data

How the results depend on the processing

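The counts of FGF members called (5, with 2 higher and 3 lower) were 5, 2 and 3 under all 14 other settings. The number of all tested genes called, 6984, ranged from 6580 to 7535 under other scalings, filters and tests, and from 6151 to 6890 without single libraries. Of the 39 named genes with a test, 29 kept their direction and side of the threshold throughout, and none reversed. Deviations from the group means of libraries with the same number in their titles had correlations of 0.039, -0.09 and 0.043. Libraries with different numbers gave -0.095 to 0.065. With 3 libraries per time such values cannot show whether pools share mice. The library names also number the 5 day pools otherwise than the titles do. With the replicate block, 6738 genes and the same number of members (5) were called, and the block ended the calls of Ncam1 (0.30) and Map2k2 (-0.27), among the genes named here. Counts in small lists moved with some settings, and the cause was not tested. The Fgf21 call was absent with at least 2 CPM required in 3 libraries (0 other FGF genes higher). Fgf21 itself did not pass that filter, so it was not tested there. With total gene counts, 1 heparan sulfate enzyme and 1 release gene were lower. Without single libraries, these counts ranged from 1 to 3 for the enzymes, from 1 to 3 for the release genes and from 0 to 4 for lower ERK targets. The single library that took the enzymes to 1 was replicate 3 at 0 h, and the release genes came to 1 without replicate 1, 2 or 3 at 0 h and without replicate 3 at 5 days. Genes with few reads, such as Fgf7, Fgf9 and Fgfbp1, were limited by depth.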

Other observations

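Transcripts of surface epithelium and several rare FGF-related transcripts were seen in the same 5 day library, replicate 3. In that library Fgf18 had 9 counts, Fgf23 had 6 and the Fgf2 antisense gene Fgf2os had 11, while the other 5 libraries held at most 1 count of any of them. The same library had 19 Trp63 counts, a gene of basal epithelial cells, against at most 3 in any other. Corneal epithelium markers summed to 73.3 CPM there and to 5.27 and 6.52 CPM in the other 5 day libraries, with 18.0 to 25.3 CPM at 0 h. Krt15 and Krt4, the tested genes of that list, went the other way and were called lower, from 294 to 72 and from 216 to 3 counts over the 3 libraries of each time. The corneal keratin Krt12 was at 11, 0 and 10 counts in the 5 day libraries and at 0 in those of 0 h.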
